A study of Mus musculus with 12 samples.

Results

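The nuclear transport machinery of the mouse prefrontal cortex was followed over the day in 49 genes: the importins and transportins, the exportins, the small GTPase Ran with its regulators and binding proteins, and the nucleoporins that carry a Nup number. They were chosen by gene name alone, from probe sets (groups of short oligonucleotides that report 1 transcript region) with 1 gene symbol, and each gene was represented by its brightest probe set if its mean log2 intensity over all arrays was at least 5. Of 53 genes whose names fitted, 49 reached that level, out of 18193 genes with 1 symbol on the array. The last to enter was Nup37 at a mean of 5.51, and the 4 left out were Nup43 at 3.45, Kpna7 at 3.38, Ranbp17 at 3.08 and Nup210l at 2.42. A name match is not a function: Ranbp9 and Ranbp10 are scaffold proteins that carry the family name and bind Ran. The 12 arrays (Affymetrix Mouse430_v2) each held RNA of 1 C57BL/6J mouse, with 3 mice at each zeitgeber time (ZT, hours from lights on). The light phase was sampled at ZT3 and at ZT9, the dark phase at ZT15 and at ZT21. All mice came as untreated adults aged 10 weeks, were held on 12 h of light and 12 h of dark with food and water at will, and were killed about 2 weeks later, at ZT15 and ZT21 under red light. The tissue was the front of the cortex behind the removed olfactory bulb, freed of subcortical structures. The question was which genes differ between times of day.

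Nuclear pores are large ring-shaped channels in the nuclear envelope, and proteins and RNAs above a small size cross them only when bound to a transport receptor. Importin alpha proteins read the classical nuclear localization signal and are carried through the pore by importin beta (Kpnb1), other members of the beta family bind their cargo directly, and exportins carry cargo out. Direction is set by Ran, which is bound to GTP in the nucleus and to GDP in the cytoplasm. In neurons the same receptors also take part in signaling from synapse to nucleus, and clock proteins of the PER and CRY families are among the cargoes that enter the nucleus each day.

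No member passed the test over the 4 times of day. With limma's moderated F-test and Benjamini-Hochberg adjustment over all tested probe sets at a false discovery rate of 20%, 0 of 49 members were called, against 1.93% of all tested probe sets, and the adjusted p of the members lay between 0.269 and 0.997. At an unadjusted p under 0.05, 7 of 49 members passed, or 14.3%, beside 15.5% of all tested probe sets. The distance between the highest and the lowest of the 4 means, called the range here, lay between 0.03 and 0.53 on the log2 scale with a median of 0.27, and the median over all tested probe sets was also 0.27. The SE given with a range is limma's SE of the contrast between the times of those means, and it was 0.09 to 0.22. The times were picked after the means were seen, and this SE does not allow for that choice. A range divided by its SE is therefore not a test, and neither is a lack of overlap between the highest and lowest times. Ranbp6 had no such overlap either, with a range of 0.20 and an adjusted p of 0.691. Differences of the size seen in most members could not be told from the spread between 3 mice. The same arrays carried a clear time-of-day signal: the clock gene Per2 had a range of 3.07 with an adjusted p of 0.000419, and the clock output gene Dbp one of 2.16 with an adjusted p of 0.000503. In RNA from whole tissue, fewer cells of a type and less RNA per cell cannot be told apart.

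The arrays themselves differed in overall level, and the members moved with them over a wider span. The mean of the members minus that of all tested probe sets ran from 0.97 in mice 1 and 2 at ZT21 to 1.14 in mouse 1 at ZT9. The mean log2 intensity of the 49 members was 8.92, 8.94 and 8.90 in the mice at ZT3. It was 9.15, 9.09 and 8.93 at ZT9, 9.02, 8.95 and 9.05 at ZT15, and 8.87, 8.86 and 9.09 at ZT21. The 5 arrays that were highest over the members, mice 1 and 2 at ZT9, mice 1 and 3 at ZT15 and mouse 3 at ZT21, were also the 5 highest over all tested probe sets, at 7.96 to 8.01 against 7.89 to 7.93 in the other arrays. In mouse 3 at ZT21, 42 of 49 members lay above their own mean over the arrays, against 12 and 11 in the other mice of that time. After quantile normalization, which gives every array the same distribution, between 19 and 31 members lay above their own mean in each array. The part of this difference between arrays in the results that follow was not tested.

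**Figure D1:**
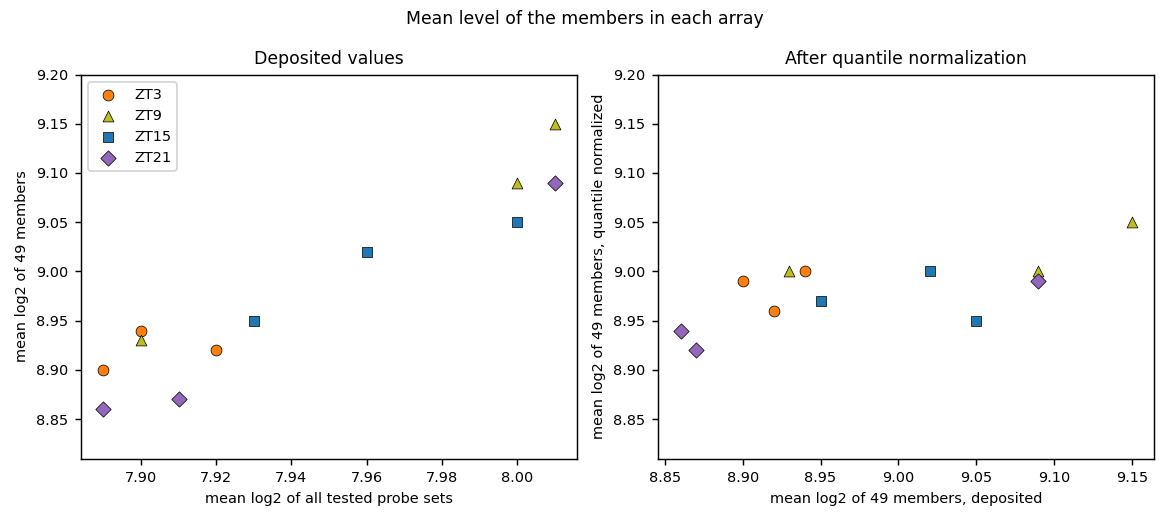
Mean log2 intensity of the 49 members in each of the 12 arrays, plotted on the left against the mean over all tested probe sets and on the right after quantile normalization; each symbol is 1 mouse, by zeitgeber time. On the left the members run from 8.86 to 9.15 and follow the overall level of the array, and both axes show part of their scale only.

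The times of the highest and lowest means differed with the scaling of the arrays. As deposited, 21 of 49 members had their highest mean at ZT9, 12 at ZT15, 8 at ZT3 and 8 at ZT21, or 42.9%, 24.5%, 16.3% and 16.3%, beside 29.1%, 24.1%, 22.1% and 24.7% of all tested probe sets. The lowest mean was at ZT3 in 25 members, at ZT21 in 16, at ZT15 in 6 and at ZT9 in 2, or 51.0%, 32.7%, 12.2% and 4.08%, beside 39.0%, 30.0%, 15.5% and 15.6% of all tested probe sets. After quantile normalization the highest mean was at ZT9 in 13 members, at ZT3 in 15, at ZT15 in 8 and at ZT21 in 13, and the share at ZT9 was then 26.5% beside 20.7% of all tested probe sets. Without the 5 arrays of the highest level it was 34.7% beside 24.9%. The lowest mean was after quantile normalization at ZT3 in 16 members (32.7% beside 27.8%), at ZT21 in 19 (38.8% beside 28.5%), at ZT15 in 8 and at ZT9 in 6. The mean over the members at ZT3, ZT9, ZT15 and ZT21 was 8.92 ± 0.02, 9.06 ± 0.11, 9.01 ± 0.05 and 8.94 ± 0.13 (SD, n = 3) as deposited. After quantile normalization it was 8.98 ± 0.02, 9.02 ± 0.03, 8.97 ± 0.02 and 8.95 ± 0.04 (SD, n = 3).

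**Figure D2:**
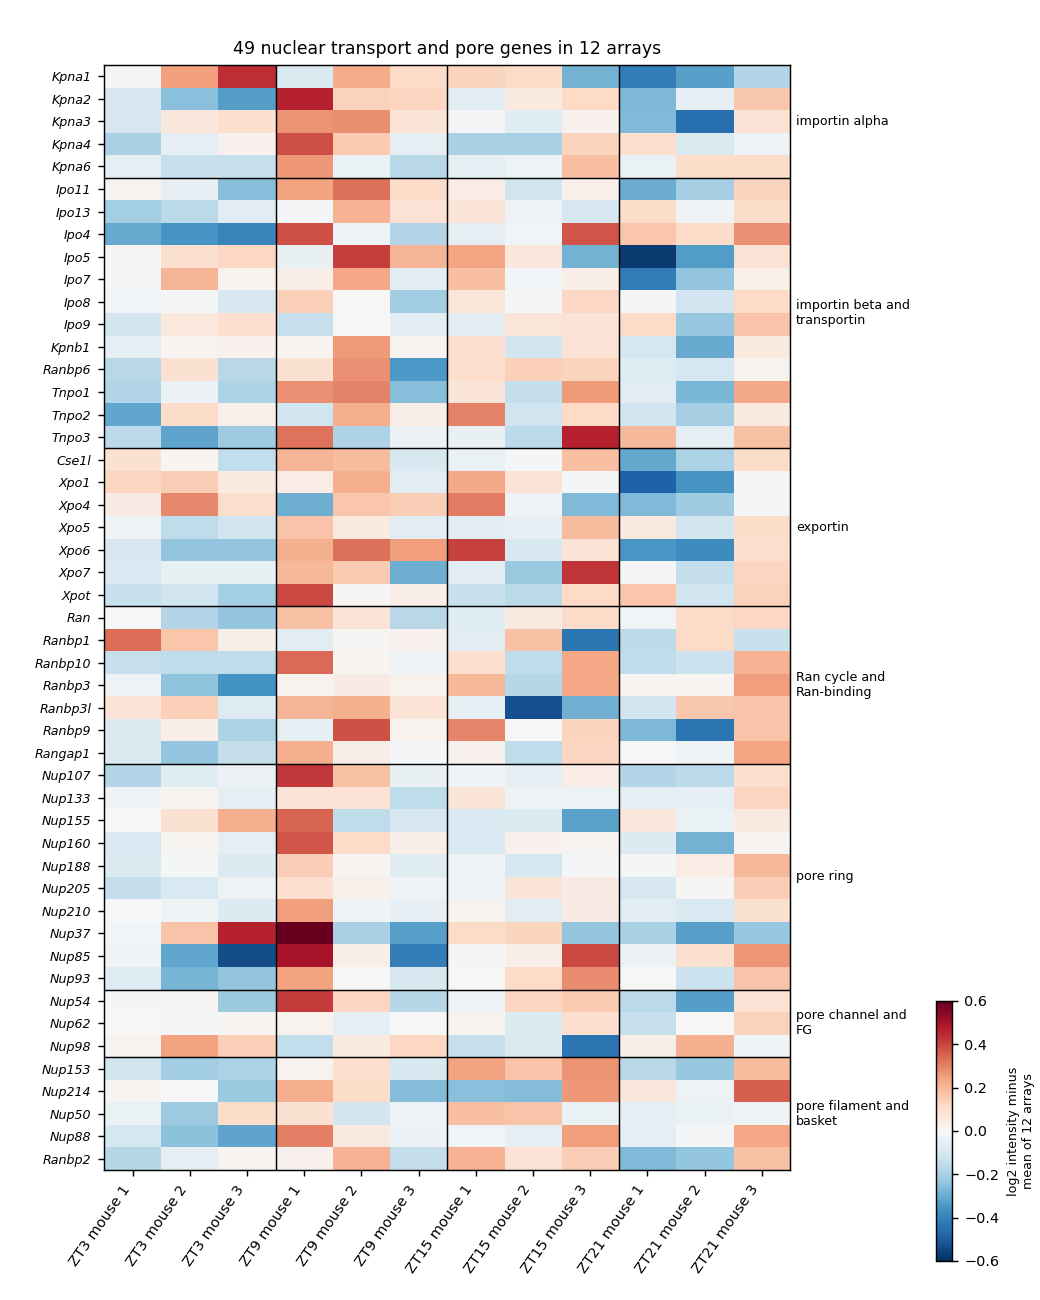
Log2 intensity of the 49 members (rows, by role) in the 12 arrays (columns, by zeitgeber time), each as the difference from the gene's own mean over the arrays, red above and blue below, with values past 0.6 drawn in the end colour. Mouse 1 at ZT9 and mouse 3 at ZT21 are mostly red, with 40 and 42 members above their mean, and mice 1 and 2 at ZT21 are mostly blue.

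Promoter sequence was a feature that the choice of genes had not used. RefSeq promoter windows of GRCm38.p6, from 250 bases before to 50 after a start, were found for 40 of the 49 members, 7 of them with 2 windows; Cse1l, Kpna1, Kpna3, Kpna6, Nup85, Ranbp3, Ranbp10, Xpo4 and Xpo7 had none. Of these 40 genes, 9 (22.5%) held the E-box CACGTG on either strand, the element bound by CLOCK and BMAL1, beside 8.09% of all 27025 genes: Ipo4, Ipo7, Nup188, Nup54, Nup93, Ran, Ranbp2, Tnpo2 and Xpot. The NRF1 element, GCGCA followed directly by TGCGC, was held by 5 members (12.5% beside 1.07%): Nup107, Nup50, Nup62, Ran and Xpo5. The cAMP response element TGACGTCA was in 3 members (7.5% beside 2.03%), namely Nup133, Nup214 and Ranbp6, and its core TGACG, which the full element contains, was in 17 (42.5% beside 23.0%). The ETS core CCGGAAG was in 7 (17.5% beside 9.93%), the D-box TTATGTAA in Ipo5 alone (2.5% beside 1.11%) and the heat shock element GAANNTTC in 2 (5.0% beside 9.04%), Ipo7 and Tnpo1. The windows of the members had a median of 64.7% G and C against 52.7% over all 32851 windows, and the part of base composition in these shares was not tested. The 27025 genes were also taken at any level in this tissue, while the members had to reach a mean log2 of at least 5. The part of that unlike choice of genes was not tested either. The windows of 4 genes are shown as 300 bases, chosen after the values were seen: Ipo4, Kpna2 and Xpo1 because they were among the members with the smallest p and had a window, and Ran because it turns the whole transport cycle and holds both an E-box and the NRF1 element. Capitals mark every match to a motif above on either strand, positions count from 1 at the 5′ end, and the start of transcription is at 251.
Ipo4, chr14:55635635-55635934, minus strand, with TGACG at 151, the ETS core at 242 and the E-box at 265: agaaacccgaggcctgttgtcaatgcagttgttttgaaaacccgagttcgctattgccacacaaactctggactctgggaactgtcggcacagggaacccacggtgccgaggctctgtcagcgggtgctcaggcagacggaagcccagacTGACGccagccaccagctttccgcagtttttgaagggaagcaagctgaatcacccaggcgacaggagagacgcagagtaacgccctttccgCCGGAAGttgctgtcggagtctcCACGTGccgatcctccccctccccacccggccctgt
Kpna2, chr11:106999476-106999775, minus strand, with TGACG on the opposite strand at 272: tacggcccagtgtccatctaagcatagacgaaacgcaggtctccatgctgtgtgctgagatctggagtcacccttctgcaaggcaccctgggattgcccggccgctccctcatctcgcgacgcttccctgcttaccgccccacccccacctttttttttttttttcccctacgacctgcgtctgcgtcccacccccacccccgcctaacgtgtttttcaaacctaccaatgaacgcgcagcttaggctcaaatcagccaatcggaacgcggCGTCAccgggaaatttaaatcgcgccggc
Xpo1, chr11:23255791-23256090, plus strand, with TGACG at 53: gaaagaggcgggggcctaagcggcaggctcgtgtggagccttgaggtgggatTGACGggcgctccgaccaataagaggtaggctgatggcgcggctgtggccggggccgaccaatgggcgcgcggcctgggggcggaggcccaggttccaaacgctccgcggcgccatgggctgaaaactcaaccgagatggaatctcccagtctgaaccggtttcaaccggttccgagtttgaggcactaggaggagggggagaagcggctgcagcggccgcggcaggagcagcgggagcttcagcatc
Ran, chr5:129019906-129020205, plus strand, with the NRF1 element at 46 and the E-box at 133: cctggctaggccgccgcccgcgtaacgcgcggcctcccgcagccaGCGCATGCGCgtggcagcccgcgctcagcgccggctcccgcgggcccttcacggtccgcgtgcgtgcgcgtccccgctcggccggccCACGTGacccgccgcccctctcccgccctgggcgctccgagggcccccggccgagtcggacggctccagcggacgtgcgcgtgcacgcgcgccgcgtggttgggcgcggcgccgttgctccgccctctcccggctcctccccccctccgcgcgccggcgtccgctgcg
A match of letters is a description and not a bound site. Among the 9 members with an E-box, Ipo4 was the one with an unadjusted F-test p under 0.05. The share at that p was 14.3% over all 49 members and 15.5% over all tested probe sets. A link between the E-box and the profile of a gene was not tested.

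The importin alpha genes encode the adaptors that read classical import signals, and the 5 members of this role had the largest median range of the 7 roles, at 0.41. Kpna1 (importin alpha 5 in human naming) read 10.14, 10.38 and 10.58 log2 units in the mice at ZT3 and 10.05, 10.36 and 10.25 at ZT9. It read 10.27, 10.25 and 9.85 at ZT15 and 9.72, 9.81 and 9.96 at ZT21. The means stepped down from ZT3 to ZT21, and the values of those 2 times did not overlap. The range was 0.53 (SE 0.15), or 1.45-fold, with an adjusted p of 0.277 by limma's F-test, and dark minus light was -0.32 (SE 0.10, adjusted p 0.223). Of the 4 other tested probe sets of Kpna1, all had their lowest mean at ZT21 and 3 their highest at ZT3, with ranges of 0.58, 0.64 and 0.74 in those 3. The remaining one had a range of 0.12. The member probe set carries the suffix _s_at that Affymetrix gives to probe sets shared by several transcripts.

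Kpna2, an importin alpha best known from dividing cells, read 9.38, 9.23 and 9.15 at ZT3, 9.94, 9.62 and 9.61 at ZT9, 9.41, 9.54 and 9.60 at ZT15 and 9.21, 9.43 and 9.64 at ZT21. Every mouse at ZT9 was above every mouse at ZT3, and ZT21 spread over both. The range was 0.47 (SE 0.13), or 1.39-fold, with an adjusted p of 0.284. Kpna3 read 9.68, 9.85 and 9.88 at ZT3, 10.05, 10.06 and 9.86 at ZT9, 9.77, 9.71 and 9.81 at ZT15 and 9.52, 9.33 and 9.87 at ZT21. Its ZT9 and ZT21 values overlapped through mouse 3 at ZT21, the range was 0.41 (SE 0.13) and the adjusted p 0.328. Its 2 other tested probe sets also had the lowest mean at ZT21, with ranges of 0.72 (SE 0.20, adjusted p 0.277) and 0.86 (SE 0.27, adjusted p 0.284). Kpna4, the closest relative of Kpna3, had means between 9.48 and 9.73, highest at ZT9 and lowest at ZT15, with a range of 0.25 (adjusted p 0.514). Its other tested probe set was highest at ZT3 and lowest at ZT21, with a range of 0.60 (SE 0.23, adjusted p 0.363) and dark minus light of -0.46. Kpna6, the closest relative of Kpna1, had means of 9.78 ± 0.05, 9.92 ± 0.22, 9.93 ± 0.13 and 9.96 ± 0.08 (SD, n = 3), a range of 0.18 and an adjusted p of 0.671. Dark minus light was 0.10 in Kpna6 beside -0.32 in Kpna1, and the difference between the 2 genes was not tested.

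**Figure D3:**
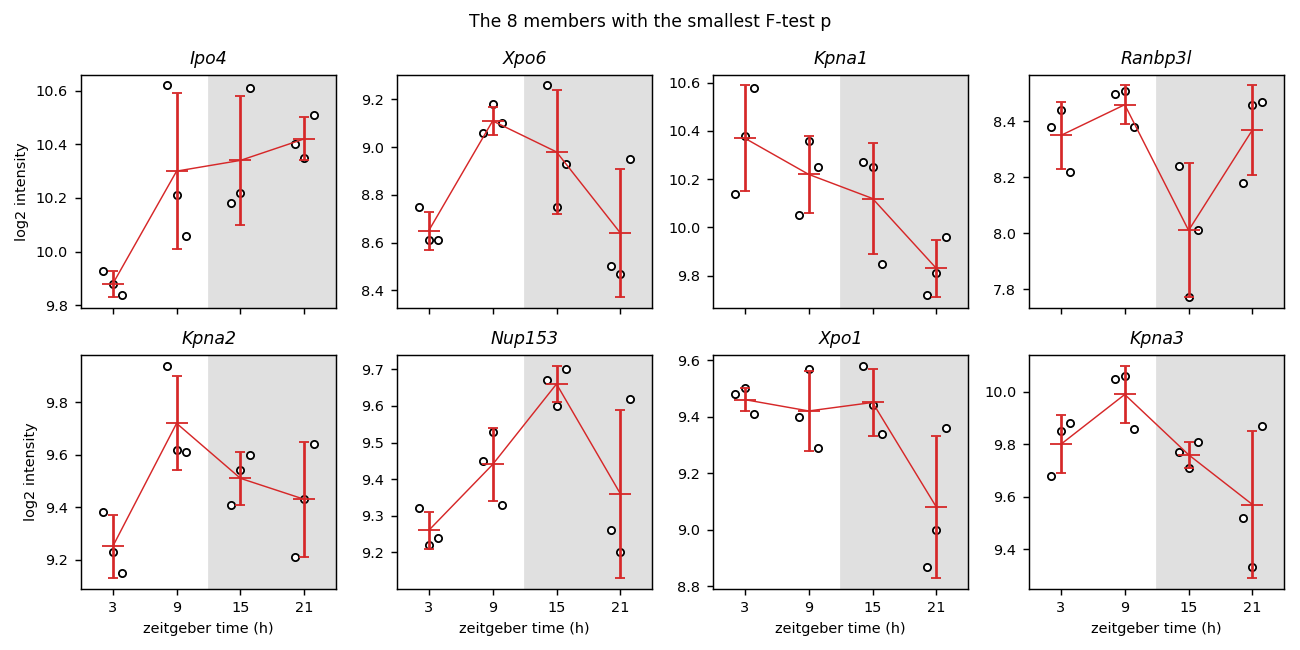
Log2 intensity of the 8 members with the smallest F-test p at the 4 zeitgeber times, with the dark phase shaded; open circles are single mice, side by side for legibility, and red marks the mean and SD of 3 mice. Ipo4 was lowest in all 3 mice at ZT3 and Kpna1 had its lowest mean at ZT21; each panel has its own scale, and none of the 8 passed the test over all probe sets (adjusted p 0.269 to 0.328).

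**Figure D4:**
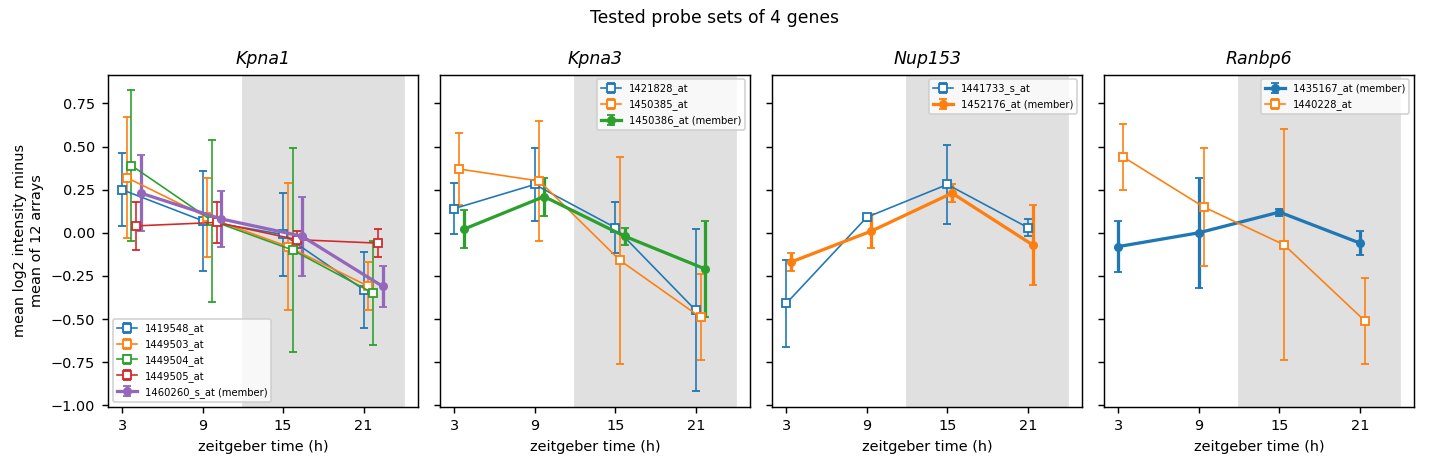
Means ± SD (n = 3 mice) of every tested probe set of Kpna1, Kpna3, Nup153 and Ranbp6, each as the difference from its mean over the 12 arrays, with filled symbols and thick lines for the member probe set. All probe sets of Kpna1 and Kpna3 are lowest at ZT21 and both of Nup153 are highest at ZT15, while the 2 of Ranbp6 run apart, with ranges of 0.20 and 0.94.

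The importin beta and transportin role held 12 members, with ranges of 0.09 to 0.53 and a median of 0.24. Ipo4, the importin that carries histones and some ribosomal proteins, had the smallest F-test p of all 49 members. It read 9.93, 9.88 and 9.84 at ZT3, 10.62, 10.21 and 10.06 at ZT9, 10.18, 10.22 and 10.61 at ZT15 and 10.40, 10.35 and 10.51 at ZT21. All 3 mice at ZT3 lay below each of the other 9 mice. The range from ZT3 to ZT21 was 0.53 (SE 0.15), or 1.45-fold, with an unadjusted p of 0.0171 and an adjusted p of 0.269 by limma's F-test. Its other tested probe set was also lowest at ZT3, with a range of 0.46 (SE 0.13, adjusted p 0.263), and was highest at ZT9.

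Ipo11, which carries ubiquitin-conjugating enzymes, had means of 8.52 ± 0.15, 8.84 ± 0.11, 8.59 ± 0.09 and 8.49 ± 0.23 (SD, n = 3) with an adjusted p of 0.342. Ipo5, a carrier of ribosomal proteins and histones, read 10.10, 10.19 and 10.22 at ZT3, 10.05, 10.51 and 10.30 at ZT9, 10.33, 10.16 and 9.81 at ZT15 and 9.52, 9.76 and 10.18 at ZT21. Mice 1 and 2 at ZT21 were the lowest of the 12, mouse 3 of the same time lay among the rest, and ZT21 minus ZT9 was -0.47 (SE 0.18, adjusted p 0.314). Ranbp6, a close relative of Ipo5, had a range of 0.20 in the member probe set. Its other tested probe set had its highest mean at ZT3 (9.02 ± 0.19) and its lowest at ZT21 (8.07 ± 0.25, both SD, n = 3), a range of 0.94 (SE 0.28) with an adjusted p of 0.307, so the 2 probe sets of this gene gave different profiles. Kpnb1, importin beta itself, had means of 10.74 ± 0.04, 10.84 ± 0.14, 10.77 ± 0.12 and 10.63 ± 0.18 (SD, n = 3), a range of 0.21 and an adjusted p of 0.584. Its 3 other tested probe sets were lowest at ZT21 as well. Ipo9 had the smallest range of the role, 0.09, with means from 9.31 to 9.41 and an adjusted p of 0.902. Of the other pairs of relatives, ZT21 minus ZT9 was -0.28 in Ipo7 beside 0.01 in Ipo8, and -0.14 in Tnpo1, which carries proteins with a PY signal, beside -0.13 in Tnpo2.

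The 7 exportins had ranges of 0.11 to 0.47 with a median of 0.30, and 4 of them were lowest at ZT21, beside 30.0% of all tested probe sets. Xpo6, the exportin of actin and profilin, read 8.75, 8.61 and 8.61 at ZT3, 9.06, 9.18 and 9.10 at ZT9, 9.26, 8.75 and 8.93 at ZT15 and 8.50, 8.47 and 8.95 at ZT21. All mice at ZT9 lay above all mice at ZT3 and at ZT21, and the range was 0.47 (SE 0.15), or 1.39-fold, with an adjusted p of 0.272. No other probe set of Xpo6 was tested. Xpo1 (CRM1), which exports proteins with a leucine-rich signal, read 9.48, 9.50 and 9.41 at ZT3, 9.40, 9.57 and 9.29 at ZT9, 9.58, 9.44 and 9.34 at ZT15 and 8.87, 9.00 and 9.36 at ZT21. Mice 1 and 2 at ZT21 lay below the other 10 mice and mouse 3 did not. The range was 0.39 (SE 0.13), or 1.31-fold, with an adjusted p of 0.296, and the other tested probe set of Xpo1 was lowest at ZT21 too but had a range of 0.19 (SE 0.13, adjusted p 0.680). Xpo7, named for the smallest range of the role, had means of 10.36 ± 0.03, 10.44 ± 0.27, 10.47 ± 0.34 and 10.41 ± 0.13 (SD, n = 3) and an adjusted p of 0.959. Cse1l (CAS), which returns importin alpha to the cytoplasm, had means from 9.22 to 9.45 and its lowest mean at ZT21. Xpo5, the exporter of miRNA precursors, had a range of 0.15, and Xpot, the exporter of tRNA, one of 0.30.

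The Ran cycle and Ran-binding role held 7 members with ranges of 0.22 to 0.45. Ran had means of 12.57 ± 0.12, 12.74 ± 0.17, 12.75 ± 0.10 and 12.79 ± 0.08 (SD, n = 3), a range of 0.22 (SE 0.11) and an adjusted p of 0.526. Of its 4 other tested probe sets, 3 were also lowest at ZT3 and highest at ZT21, with ranges of 0.26 to 0.33, and 1 was highest at ZT9 and lowest at ZT21, with a range of 0.33. The 4 that ran alike carry the suffix for probes that may cross-hybridize, and Ran has near-identical processed copies in the genome, so these values are uncertain as to their source. Rangap1, the cytoplasmic activator of GTP hydrolysis on Ran, had means of 10.32 ± 0.08, 10.55 ± 0.12, 10.47 ± 0.14 and 10.54 ± 0.14 (SD, n = 3) and an adjusted p of 0.452. Its other tested probe set ran the opposite way, highest at ZT3 (8.83) and lowest at ZT9 (8.70), with a range of 0.13 and an adjusted p of 0.747. Ranbp1, which helps to release Ran-GTP from transport receptors, was highest at ZT3 and lowest at ZT15, with means from 10.48 to 10.77 and an adjusted p of 0.530. Ranbp3l, an exporter of SMAD proteins related to Ranbp3, read 8.38, 8.44 and 8.22 at ZT3, 8.50, 8.51 and 8.38 at ZT9, 8.24, 7.77 and 8.01 at ZT15 and 8.18, 8.46 and 8.47 at ZT21. Mice 2 and 3 at ZT15 were the lowest of the 12, and the range was 0.45 (SE 0.13), or 1.37-fold, with an adjusted p of 0.278. Its other tested probe set shared neither the highest nor the lowest time, being highest at ZT3 and lowest at ZT9. Ranbp3, a cofactor of Xpo1, had means of 8.56 ± 0.17, 8.80 ± 0.02, 8.86 ± 0.22 and 8.86 ± 0.14 (SD, n = 3) and an adjusted p of 0.389. Dark minus light was 0.18 in Ranbp3 beside -0.22 in Ranbp3l, a pair whose difference was not tested.

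The 10 structural nucleoporins of the pore ring had ranges of 0.03 to 0.46. As deposited, 7 of them were lowest at ZT3, as were 39.0% of all tested probe sets, and after quantile normalization 3 were, beside 27.8%. Nup93, a scaffold of the inner ring, had means of 6.82 ± 0.11, 7.07 ± 0.18, 7.15 ± 0.14 and 7.03 ± 0.15 (SD, n = 3) with an adjusted p of 0.372. Nup160, of the outer ring, was highest at ZT9 and lowest at ZT21, at 7.21 ± 0.18 and 6.91 ± 0.15 (SD, n = 3), with an adjusted p of 0.382. Nup85, of the same outer ring complex, was lowest at ZT3 with 8.19 ± 0.26 and highest at ZT15 with 8.61 ± 0.22 (SD, n = 3), a range of 0.42 (SE 0.21) with an adjusted p of 0.485. Nup133, also of the outer ring, had means from 8.16 to 8.19 in the member probe set, a range of 0.03 (SE 0.09) and an adjusted p of 0.996, while its 3 other tested probe sets, all dimmer, had ranges of 0.13, 0.31 and 0.73 (adjusted p 0.962, 0.348 and 0.471). Nup107, Nup155, Nup188, Nup205 and Nup210 had ranges between 0.10 and 0.28, and Nup37, the dimmest member, one of 0.46 (SE 0.22). Of the 3 members of the central channel, Nup98 was highest at ZT3 (6.99 ± 0.11) and lowest at ZT15 (6.64 ± 0.19, both SD, n = 3), with an adjusted p of 0.330. Its other tested probe set ran the opposite way, lowest at ZT3 (6.25 ± 0.34) and highest at ZT15 (6.97 ± 0.43, both SD, n = 3), a range of 0.72 (SE 0.27) with an adjusted p of 0.404. Nup54 had a range of 0.26 with an adjusted p of 0.556, and its 4 tested probe sets had 3 different times of lowest level. Nup62, a core protein of the channel, had means of 9.53 ± 0.01, 9.52 ± 0.04, 9.54 ± 0.09 and 9.53 ± 0.14 (SD, n = 3), a range of 0.03 (SE 0.09) and an adjusted p of 0.997. Its 3 other tested probe sets were each lowest at ZT3, with ranges of 0.27, 0.19 and 0.33 (adjusted p 0.478, 0.624 and 0.448).

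Among the 5 genes of the pore filaments and basket, Nup153 was the gene with a called probe set. Nup153 lies on the nuclear side of the pore and is a docking site for transport receptors. The member probe set read 9.32, 9.22 and 9.24 at ZT3, 9.45, 9.53 and 9.33 at ZT9, 9.67, 9.60 and 9.70 at ZT15 and 9.26, 9.20 and 9.62 at ZT21. All mice at ZT15 lay above all mice at ZT3 and ZT9, and mouse 3 at ZT21 reached their level. The range was 0.40 (SE 0.11), or 1.32-fold, with an adjusted p of 0.286, and ZT15 minus ZT3 had an adjusted p of 0.186. The other probe set, which is dimmer, had means of 6.63 ± 0.25, 7.13 ± 0.02, 7.32 ± 0.23 and 7.07 ± 0.05 (SD, n = 3), with the same times of highest and lowest level and a range of 0.69 (SE 0.14). With an adjusted p of 0.177 by limma's F-test it was the 1 of 58 other tested probe sets of members that passed at 0.20. The background was 1.93% of all tested probe sets, so 1 such call among 58 is near that share. The suffix _s_at of this probe set marks probes shared by several transcripts. The call ended when any of 8 single mice was left out, with adjusted p between 0.128 and 0.472 over the 12 leave-outs. It also ended with the replicate block (adjusted p 0.278), with no filter (0.271), with no moderation (0.354) and without the 5 arrays of the highest level (0.237). Of these 58, 10 had an unadjusted p under 0.05 (background 15.5%), 26 peaked at the same time as the member probe set and 24 had the same lowest time. Nup88, which lies with Nup214 on the cytoplasmic side, had means of 8.80 ± 0.11, 9.12 ± 0.18, 9.08 ± 0.16 and 9.07 ± 0.16 (SD, n = 3) and an adjusted p of 0.368. Ranbp2 (Nup358), the main cytoplasmic filament protein, had means of 10.72 ± 0.10, 10.83 ± 0.17, 10.94 ± 0.06 and 10.68 ± 0.25 (SD, n = 3) and an adjusted p of 0.517. Its 3 other tested probe sets had ranges of 0.32, 0.70 and 0.43 (adjusted p 0.346, 0.294 and 0.332). They were highest at ZT15, ZT15 and ZT3 and lowest at ZT21, ZT3 and ZT9. Nup50, a basket protein that helps to recycle importin alpha, had the smallest range of the role, 0.15, with an adjusted p of 0.678, and Nup214 had a range of 0.21.

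Contrasts between times gave no call among the members at an adjusted p under 0.05 (limma, two-sided). The background was 0.0937% of all tested probe sets for dark minus light, 0.22% for ZT15 minus ZT3, 0.00407% for ZT21 minus ZT9, 0.0448% for ZT9 minus ZT3, 0.126% for ZT15 minus ZT9, 0.0122% for ZT21 minus ZT15 and 0.0204% for ZT21 minus ZT3. For dark minus light the median over the members was 0.01 log2, as over all tested probe sets, with 27 members above 0, or 55.1% beside 51.9%, and 22 below. Ipo4 was higher in the dark at an unadjusted p under 0.05 (background 8.76%), and Kpna1, Kpna3 and Ranbp3l were lower (background 6.58%). In Kpna1 and Kpna3 both dark means lay below both light means. Ipo4 had a mean of 10.30 at ZT9 beside 10.34 at ZT15, and Ranbp3l one of 8.35 at ZT3 beside 8.37 at ZT21. For ZT21 minus ZT9 the median was -0.07 beside -0.02 over all tested probe sets, and 36 of 49 members were below 0, or 73.5% beside 56.1%. At an unadjusted p under 0.05, 0 members were higher (background 4.18%) and 8 of 49 lower (background 9.07%): Ipo5, Ipo11, Kpna1, Kpna2, Kpna3, Nup160, Xpo1 and Xpo6. The smallest adjusted p of these was 0.262.

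For ZT15 minus ZT3 the median was 0.10 beside 0.05 over all tested probe sets. Ipo4, Nup153, Nup88, Nup93 and Ranbp3 were higher at an unadjusted p under 0.05 (background 9.85%), and Nup98 and Ranbp3l lower (background 2.68%). For Nup98 the member probe set gave -0.36 and the other tested probe set 0.72 in this contrast. For ZT9 minus ZT3 the median was 0.12 beside 0.06, with 39 members above 0, or 79.6% beside 63.0%. Here Ipo4, Ipo11, Ipo13, Kpna2, Nup107, Nup88, Xpo6 and Xpot were higher at that p (background 8.91%), and 0 were lower (background 2.62%). For ZT15 minus ZT9, 0 were higher (background 3.75%) and Ranbp3l was lower (background 3.44%). For ZT21 minus ZT15, Nup98 and Ranbp3l were higher (background 3.29%) and Nup153, Xpo1 and Xpo6 lower (background 6.39%). For ZT21 minus ZT3, Ipo4, Ipo13, Nup88 and Ranbp3 were higher (background 11.7%) and Ipo7, Kpna1 and Xpo1 lower (background 7.57%). These contrasts share mice with each other, so their lists are not independent. After quantile normalization the median of ZT15 minus ZT3 was 0.01 and that of ZT21 minus ZT9 was -0.01.

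**Figure D5:**
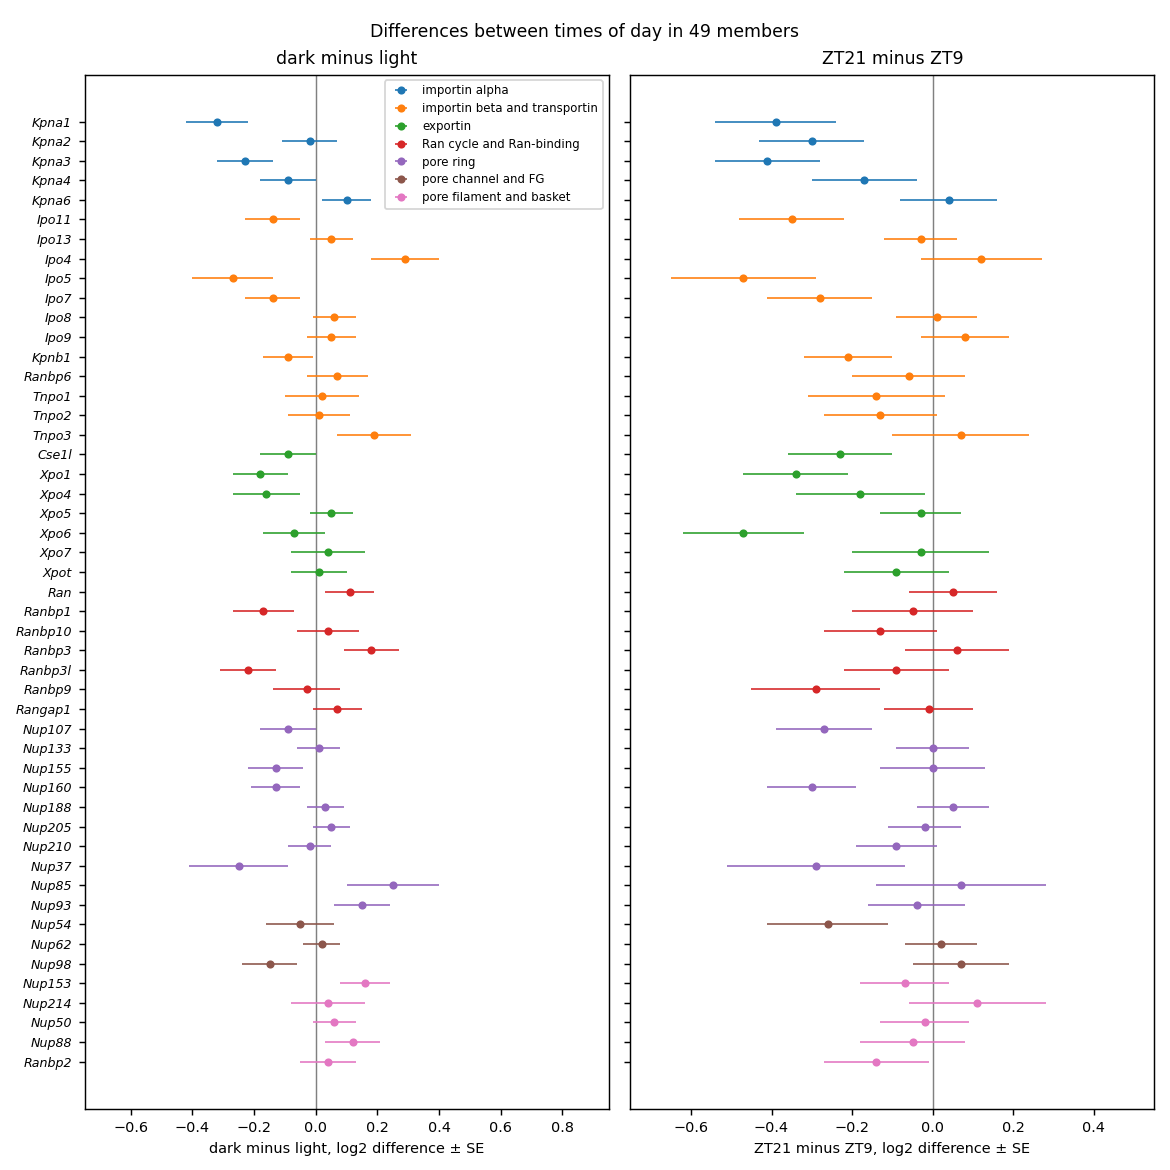
Log2 difference ± SE (limma) between dark and light on the left and between ZT21 and ZT9 on the right for each of the 49 members, coloured by role. On the left 27 members lie above 0 and on the right 36 lie below, with Xpo6, Ipo5, Kpna3 and Kpna1 lowest at -0.47, -0.47, -0.41 and -0.39.

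The count of members called by the F-test at 0.20 depended on the arrays that were used and their scaling, and so did the background. Quantile normalization gave 5 members (Ipo4, Kpna3, Nup153, Ranbp3l and Xpo1) against 8.73% of all tested probe sets. The 15000 brightest probe sets alone gave 3 of the 41 members then tested (Ipo4, Kpna1 and Xpo6) against 8.87%. Array weights gave 33 members against 60.0%. Without mouse 1 at ZT9 there were 3 members (Ipo4, Kpna1 and Nup37) against 12.3%, without mouse 3 at ZT9 there was Ipo4 alone against 6.08%, and without mouse 3 at ZT15 there were Ipo4 and Kpna1 against 5.62%. Without mouse 3 at ZT21, the mouse with 42 members above their mean, there were 8 members (Ipo5, Ipo7, Ipo11, Kpna2, Kpna3, Nup153, Xpo1 and Xpo6) against 11.7%. Without all 5 arrays of the highest overall level, which leaves 1 mouse each at ZT9 and ZT15 and assumes that they vary like the others, there were 5 members (Ipo4, Ipo5, Kpna1, Xpo1 and Xpo6) against 14.7%. The adjusted p of Ipo4 was then 0.117 with a range of 0.49, and that of Xpo1 was 0.117 with a range of 0.53. In each of these settings the members' count stands beside a background that was itself far above the 1.93% of the full set.

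Other genes of the pathway, which the name rule leaves out, were taken from a list of 42, of which 35 had a probe set at a mean log2 of at least 5. The F-test called 0 of these 35, and 5 had an unadjusted p under 0.05 (background 15.5%). None of the 7 contrasts called any of them. Their highest mean was at ZT15 in 17 genes, or 48.6% beside 24.1% of all tested probe sets, and their lowest at ZT3 in 20 (57.1% beside 39.0%) and at ZT21 in 13 (37.1% beside 30.0%). After quantile normalization 13 were highest at ZT15 (37.1% beside 19.2%), 10 lowest at ZT3 (28.6% beside 27.8%) and 14 lowest at ZT21 (40.0% beside 28.5%). Ahctf1 (Elys), which starts pore assembly on chromatin, read 8.48, 8.51 and 8.44 at ZT3, 8.75, 8.84 and 8.63 at ZT9, 9.02, 8.79 and 8.96 at ZT15 and 8.21, 8.32 and 8.71 at ZT21, with a range of 0.51 (SE 0.13) and an adjusted p of 0.227. The mRNA export receptor Nxf1 had a range of 0.46 (SE 0.12, adjusted p 0.260) and was highest at ZT15. Lrpprc, an RNA-binding protein with a role in mRNA export and in mitochondria, had one of 0.63 (SE 0.17, adjusted p 0.268) and was lowest at ZT21. The mRNA export factor Rae1 had one of 0.33 (SE 0.09, adjusted p 0.276) and was highest at ZT9.

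The tissue label was checked against marker genes fixed by name. The levels are the log2 of the summed linear intensity of the markers of a type, so the brightest marker weighs most. For neuron markers this was 15.04 to 15.48 over the 12 arrays with 5 of 5 measured. It was 14.05 to 14.50 for astrocyte markers (4 of 4), 14.30 to 14.66 for myelin markers (3 of 4) and 11.25 to 11.71 for microglia markers (4 of 4). Markers of the striatum (3 of 4) gave 8.57 to 9.51. Endothelial markers (4 of 4, with Pecam1 below 5) gave 10.06 to 10.29 at ZT21, above every array at ZT3 (9.88 to 9.97), ZT9 (9.56 to 9.95) and ZT15 (9.70 to 9.87). Of these markers Cldn5, a tight junction protein, passed the F-test (adjusted p 0.0602 by limma), with means of 8.97 ± 0.13, 8.27 ± 0.34, 8.40 ± 0.19 and 9.33 ± 0.09 (SD, n = 3). The other endothelial markers did not have their highest mean at ZT21. From ZT3 to ZT21 the means were 7.32, 7.47, 7.64 and 7.32 in Flt1, 8.25, 8.64, 8.31 and 8.32 in Slco1a4, and 3.58, 3.34, 3.42 and 3.42 in Pecam1. ZT21 is also the time at which 16 members had their lowest mean, or 32.7% beside 30.0% of all tested probe sets. Blood (2 of 3, with Hba-a1 below 5) gave 5.28 to 6.56, and the olfactory bulb (3 of 3, with Th and Eomes below 5) 5.48 to 5.95. Choroid plexus markers (4 of 4, with Folr1 below 5) ran from 9.68 to 14.85 and were highest in mouse 3 at ZT9, in which 18 members lay above their mean. The part of these tissues in the members' levels was not tested.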

How the data were processed

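Total RNA of the prefrontal cortex of single mice was hybridized to 12 arrays, 3 separate mice per zeitgeber time. The deposited values are intensity on a linear scale: per the labels and methods the authors extracted GCRMA values per probe set and took detection calls from MAS5, and the submitters' processing notes name both tools. Tool versions, scan dates and batches are not given in the sources used here. The table holds 45101 probe sets, 64 of them controls, which were left out. Of the rest, 34945 have 1 symbol, 932 several and 9160 none. As many probe sets as the study kept after its detection filter, taken as the brightest by mean log2 intensity (floor 1, with 0 values below it), were tested with limma 3.58.1 in R 4.3.3 (lmFit, eBayes), by an F-test at an adjusted p of 0.20 and two-sided contrasts at 0.05, adjusted over all tested probe sets. The number of arrays limits the precision. The calculation was tested on simulated data. Named genes were the 12 members with the smallest F-test p, and per role the 2 with the smallest p, plus the Ran cycle. The member of each role with the smallest range and the one with the highest mean were also named. Outside this rule, Ipo5 is given with its single readings, and Kpna4, Cse1l and Ranbp6 with means. Other members are given by range, by a difference between times or in the list behind a count. The choice of members outside the rule was not fixed beforehand. Members and gene lists, the marker lists included, were chosen with earlier results of these data known. Figures were drawn with matplotlib 3.10.9 under Python 3.11.15, from tables computed with numpy 2.4.6 and pandas 2.3.3.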

Additional observations from a re-analysis of the deposited data

How the results depend on the processing

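The full set called 0 members by the F-test. It stayed at 0 with centring on array medians, no filter, an intensity trend with a robust prior, no moderation, 16 added to the intensity, a mean of at least 7 (44 members) and multiclass SAM (539 calls over all probe sets). It was 5 with quantile normalization, 3 with the 15000 brightest probe sets, 33 with array weights, 5 without the 5 arrays of the highest level (chosen after seeing the data) and 1, Nup153, with the probe set of the smallest number for each gene. Leaving out 1 mouse at a time gave 0 to 8 members by the F-test and 0 in each contrast. The paper's own multiclass SAM, at the same false discovery rate, selected far more transcripts than the 539 called by SAM here. The paper filtered its probe sets by detection calls, whereas the brightest were taken here. The cause of this gap was not tested. A count of 0 members here does not show that the list of the study holds none. The labels do not say whether the replicate numbers of the titles pair the mice. Correlations of same-numbered deviations ran from -0.498 to 0.487, and 3 of 12 arrays correlated best with their own number. This check does not show that the numbers are free of a shared batch. The fit with the replicate block called 0 members and 91 probe sets in all. The block also ended the call of the other Nup153 probe set (adjusted p 0.177 without it, 0.278 with it). Array weights called 6 members for dark minus light (background 11.5% of all tested probe sets) and 3 for ZT15 minus ZT3 (background 4.16%). They called 13 for ZT21 minus ZT9 (18.3%), 7 for ZT21 minus ZT15 (11.1%) and 10 for ZT21 minus ZT3 (26.4%). The median of ZT15 minus ZT3, 0.10, was 0.01 with quantile normalization and 0.00 without the 5 arrays. Over single leave-outs the medians ran from -0.03 to 0.04 (dark minus light), 0.05 to 0.13 (ZT15 minus ZT3), -0.14 to -0.01 (ZT21 minus ZT9), -0.11 to 0.03 (ZT15 minus ZT9) and -0.13 to -0.02 (ZT21 minus ZT15). Ranges near 0 turned sign in 3 genes, over single leave-outs from -0.08 to 0.25 in Xpo7, -0.03 to 0.06 in Nup133 and -0.02 to 0.07 in Nup62: Xpo7 was -0.02 with array weights, -0.08 without mouse 3 at ZT15 and -0.16 without the 5 arrays, Nup133 was -0.03 with quantile normalization, array weights, without mouse 3 at ZT21 and without the 5 arrays, and Nup62 was -0.02 without mouse 3 at ZT15 and -0.08 without the 5 arrays. The causes were not tested. Signal over background and the number of arrays limit what can be resolved, and the SE of a member's range was 0.09 to 0.22.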
